A study of Mus musculus with 4 samples.

Results

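Melanocytes are the pigment cells of the skin, and they share the epidermis and the hair follicle with keratinocytes. The chromatin of 9 melanocyte lineage genes was read in ATAC-seq libraries of mouse keratinocytes sorted after skin inflammation. ATAC-seq uses the Tn5 transposase to cut open chromatin, so that a peak marks DNA that was accessible in part of the sorted cells. The 9 genes were Mitf, Sox10, Dct, Tyr, Tyrp1, Pmel, Mlana, Kit and Ednrb, chosen by name as genes that mark or build the melanocyte. Peaks of the 4 libraries were merged where they overlapped by at least 1 bp, which gave 82641 regions, and the 39 regions that overlapped a gene body or its 25 kb flanks were kept. Of these, 19 had a start site (TSS) of a member gene as their nearest TSS and are called the genes' own regions. The other 20 lay closest to a TSS of a neighbouring gene.

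Open chromatin at these genes was uneven. Mitf held 10 of the 19 own regions, and its most upstream promoter and an intron 2 region ranked near the top of every library's list. Dct, Mlana and Tyrp1 each had 1 own region called in all 4 libraries, none of them over a TSS, whereas Tyr and Kit had no region in any library, Sox10 and Pmel had no own region, and Ednrb was called in 1 library. Of the own regions, only the 10 called in all 4 libraries were compared between genotypes in the main test, and none of them passed the threshold.

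The samples formed 2 groups of 2 libraries, labelled WT and Mapk8-KO. All were adult female C57BL/6 mice whose skin had received Aldara cream with 5% imiquimod, a TLR7 ligand, daily for 8 days. The Mapk8-KO mice carried floxed Mapk8 alleles and a Cre under the Krt14 promoter, which is active in basal keratinocytes, and so lacked the kinase JNK1 in the epidermis. Live EpCam+ CD49f-hi cells were sorted, with CD45, CD31 and CD140a stained in a common channel against leukocytes, endothelium and fibroblasts, and no antibody to a melanocyte protein was named. The floxed part of Mapk8 is not given in the sources used here, so that the peak lists did not check the deletion. Untreated skin was not analysed here, and in a bulk library fewer cells of a type and less open chromatin per cell cannot be told apart.

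MITF is the transcription factor that directs the melanocyte programme, and SOX10 acts upstream of it. DCT, TYR and TYRP1 are the enzymes of melanin synthesis, PMEL forms the fibrils on which the pigment is laid down, and MLANA is a protein of the same organelle. KIT and EDNRB are the receptors through which keratinocyte and other signals reach melanocytes and their precursors. Mitf has several promoters that feed alternative first exons into shared exons, and the one closest to the shared exons, known as M, is the melanocyte promoter, whereas the promoters upstream are used in many cell types.

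Peak numbers were 69927 and 54856 in the WT libraries and 69583 and 49856 in the Mapk8-KO libraries. Relative depth, from the median summit pileup of the regions shared by all libraries, was 1 and 0.694 in the WT libraries and 1.10 and 0.612 in the Mapk8-KO libraries, set against WT 1. The second library of each group was thus the shallower, and the smallest pileup listed was 8 to 10 fragments. Values are given as the fold enrichment over background at the summit, as its percentile among all peaks of the same library, and as the summit pileup, the number of fragments that cover the summit. Values of a group are always given in the order of its replicates. The highest q-value listed was 0.00928 to 0.00970 by library, so that the lists held no peak near the q of 0.05 named for the calling. A region with no peak in a library was below the threshold of that list and has no value there.

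The sequences below carry the findings on these genes. Each of the first 6 is 201 bases around the summit of an own region in GRCm38, read on the plus strand, and the last is the 250 bases before the Tyr TSS, which lay in no peak. The Dct and Mlana windows are the own regions within 2 kb of a pigment gene's TSS, and the Tyrp1 window is the own region of that gene. The 3 Mitf windows are its most enriched region and the regions closest to the starts of Mitf-203 and Mitf-201. Capitals mark, on either strand, ACAATG or ACAAAG (motifs of SOX factors), CATGTG (an E-box that MITF can bind) and TGACTCA or TGAGTCA, which are reverse complements of each other (the AP-1 motif, bound by FOS and JUN).
Dct, intron 1, chr14:118051097-118051297, plus strand: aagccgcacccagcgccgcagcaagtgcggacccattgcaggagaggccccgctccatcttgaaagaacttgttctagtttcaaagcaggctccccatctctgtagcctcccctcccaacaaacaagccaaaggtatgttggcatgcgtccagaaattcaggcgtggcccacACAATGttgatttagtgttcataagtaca
Mlana, intron 1, chr19:29699691-29699891, plus strand: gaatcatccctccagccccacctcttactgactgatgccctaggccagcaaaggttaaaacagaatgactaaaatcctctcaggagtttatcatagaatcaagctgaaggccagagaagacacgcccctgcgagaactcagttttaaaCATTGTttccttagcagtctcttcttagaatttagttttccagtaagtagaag
Tyrp1, beyond the gene's end, chr4:80864537-80864737, plus strand: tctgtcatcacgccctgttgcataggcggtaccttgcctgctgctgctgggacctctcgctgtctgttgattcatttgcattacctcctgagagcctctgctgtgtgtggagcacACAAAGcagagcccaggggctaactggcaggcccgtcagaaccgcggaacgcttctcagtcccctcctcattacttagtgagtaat
Mitf, intron 2, the most enriched region, chr6:97952978-97953178, plus strand: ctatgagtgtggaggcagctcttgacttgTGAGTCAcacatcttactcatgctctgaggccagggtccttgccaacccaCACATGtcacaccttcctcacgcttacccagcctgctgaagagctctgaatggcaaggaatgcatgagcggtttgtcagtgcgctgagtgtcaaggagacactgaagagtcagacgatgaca
Mitf, intron 1, the closest region to the Mitf-203 start, chr6:97924277-97924477, plus strand: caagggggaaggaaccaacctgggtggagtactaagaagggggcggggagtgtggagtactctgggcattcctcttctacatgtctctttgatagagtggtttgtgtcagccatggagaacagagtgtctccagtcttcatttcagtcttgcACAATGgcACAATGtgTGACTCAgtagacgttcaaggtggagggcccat
Mitf, intron 2, the closest region to the Mitf-201 start, chr6:97974939-97975139, plus strand: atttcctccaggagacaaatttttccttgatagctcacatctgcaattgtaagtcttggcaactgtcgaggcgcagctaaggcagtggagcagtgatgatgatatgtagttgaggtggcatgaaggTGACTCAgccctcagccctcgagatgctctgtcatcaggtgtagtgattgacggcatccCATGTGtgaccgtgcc
Tyr, upstream of the start site, not called, chr7:87493513-87493762, minus strand: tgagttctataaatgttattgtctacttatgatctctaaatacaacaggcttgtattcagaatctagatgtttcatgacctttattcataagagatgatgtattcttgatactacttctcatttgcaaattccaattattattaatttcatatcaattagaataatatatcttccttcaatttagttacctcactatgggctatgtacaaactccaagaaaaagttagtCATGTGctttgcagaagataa
The Tyr window holds the E-box CATGTG at position -21 from the TSS, and 9.74% of the 250-base windows before protein-coding TSSs hold this E-box. No base of these 7 windows lay in a GENCODE exon.

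Of the 9 genes, only Mitf had a TSS inside a region called in all 4 libraries, whereas 50.1% of 21911 protein-coding genes had one. Within 2 kb of a TSS, the distance that the study used for promoters, 4 genes had a region called in all 4 libraries, namely Mitf, Dct, Pmel and Mlana, against 55.0% of protein-coding genes. Tyr and Kit had no region at all in any library, and 14.4% of protein-coding genes had none. The Pmel region 790 bp from its TSS contained the TSS of Cdk2, a cell cycle kinase, so that Pmel had no own region, nor did Sox10.

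The 39 regions lay in windows of 939 kb in total, which gave 4.15 regions per 100 kb, and the value over all protein-coding genes was 4.99. Of the 39, 19 were called in all 4 libraries, or 48.7% (Wilson 95% interval 33.9 to 63.8%, counting error only), and the share was 48.6% of all regions. A further 10 (25.6%) were called in 1 library only, against 21.7% of all regions. The share called in all 4 libraries was thus near that of the regions at large.

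**Figure D1:**
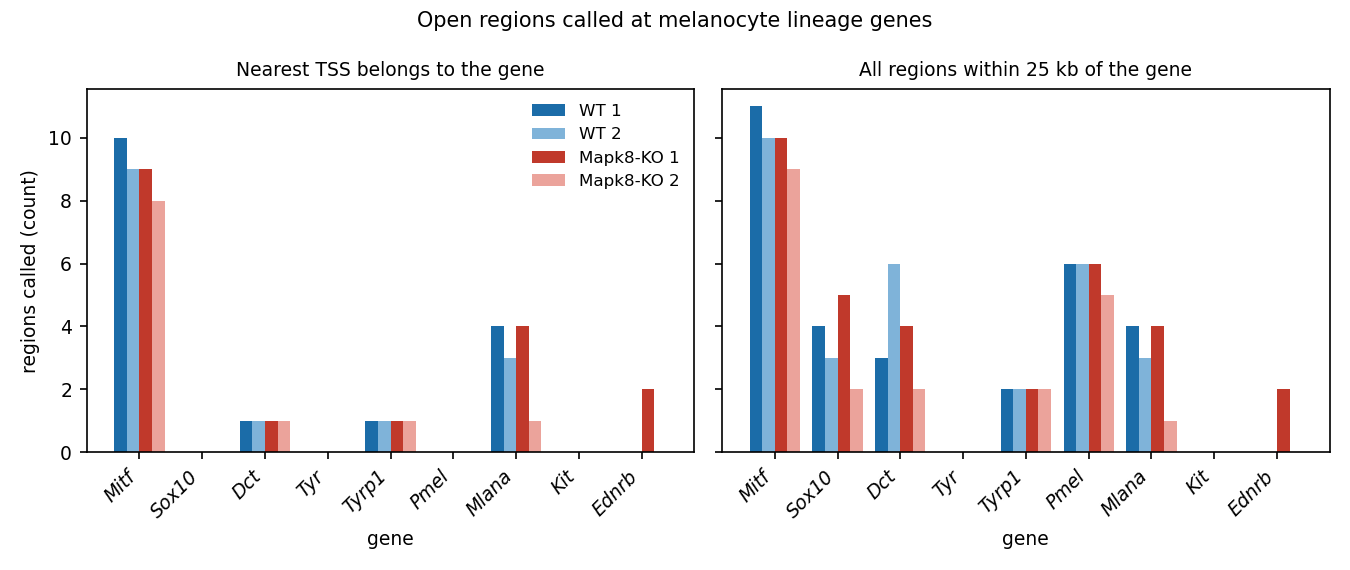
Number of regions called per gene and library, for the genes' own regions (left) and for all regions within 25 kb of the gene (right). Bars are single libraries. Mitf held 10 of the 19 own regions, Tyr and Kit none, and the 2 Ednrb regions were called in Mapk8-KO 1 only.

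Mitf, on chromosome 6 (97807052 to 98021349, plus strand), held 11 regions, 10 of them its own and 7 of those called in all 4 libraries. Its most upstream promoter lay in the region chr6:97806738-97807335. Fold enrichment there was 17.2 and 17.5 in the WT libraries and 17.2 and 17.4 in the Mapk8-KO libraries. The 4 libraries were nearly equal, and the region ranked at percentiles of 98.6 to 99.2. Pileups were 117 and 86 fragments in WT and 148 and 85 in Mapk8-KO, which followed the depth of the libraries. At the depth of WT 2, the exact Poisson 95% interval of 86 fragments ran from 68.8 to 106 and covers counting error only.

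The highest enrichment among the members was in intron 2 of the longest Mitf transcript, at chr6:97952712-97953241, 11794 bp from the TSS of Mitf-204. Fold enrichment was 20.5 and 18.8 in the WT libraries and 20.1 and 19.2 in the Mapk8-KO libraries. These values placed the region between the percentiles 99.7 and 99.8 of each list. Pileups were 162, 111, 186 and 102 fragments. This is the window printed above with AP-1 at position 30 and an E-box CATGTG at position 80, counted from its 5′ end.

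The promoter of Mitf-201, which by its place next to the shared exons is the M promoter, was not in any region. The closest region, chr6:97974933-97975197, lay 16595 bp upstream of its TSS and 16724 bp upstream of that of Mitf-208. It was called with fold enrichments of 7.98 and 10.7 in the WT libraries and 5.68 in Mapk8-KO 1, and was not called in Mapk8-KO 2. Pileups were 24, 26 and 19 fragments, and the 2 WT libraries had the highest percentiles, 57.8 and 77.2 against 33.4 in Mapk8-KO 1.

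The TSS of Mitf-203 and that of Mitf-204 were also outside all regions. The closest region to the Mitf-203 TSS, 5158 bp upstream at chr6:97924225-97924641, had fold enrichments of 9.26 and 12.6 in the WT libraries and 6.53 in Mapk8-KO 1, and no call in Mapk8-KO 2. Pileups were 28, 31 and 22 fragments. Both regions next to the downstream promoters thus showed the same set of libraries and the same order of libraries. Mapk8-KO 2 was the shallowest library, and the part of its depth in the missing calls was not tested.

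The other own regions of Mitf lay in introns. The region 41119 bp downstream of the first promoter had pileups of 64, 35, 62 and 33 fragments and percentiles of 80.5 to 95.1. The region 20981 bp beyond the Mitf-204 TSS had 71, 36, 73 and 26 fragments, and that at 19618 bp from the first promoter had 60, 42, 68 and 28. In all 3, the first library of each group, the deeper, was above the second. The remaining regions were weak: 33, 16, 29 and 17 fragments at 21031 bp, 18, 8, 16 and 16 fragments in intron 9, and 16 and 12 fragments, in WT 1 and Mapk8-KO 2 only, at 30684 bp. A region of intron 1 that lay closer to the TSS of Gm15531 was called in all 4 libraries at percentiles of 84.0 to 91.8.

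**Figure D2:**
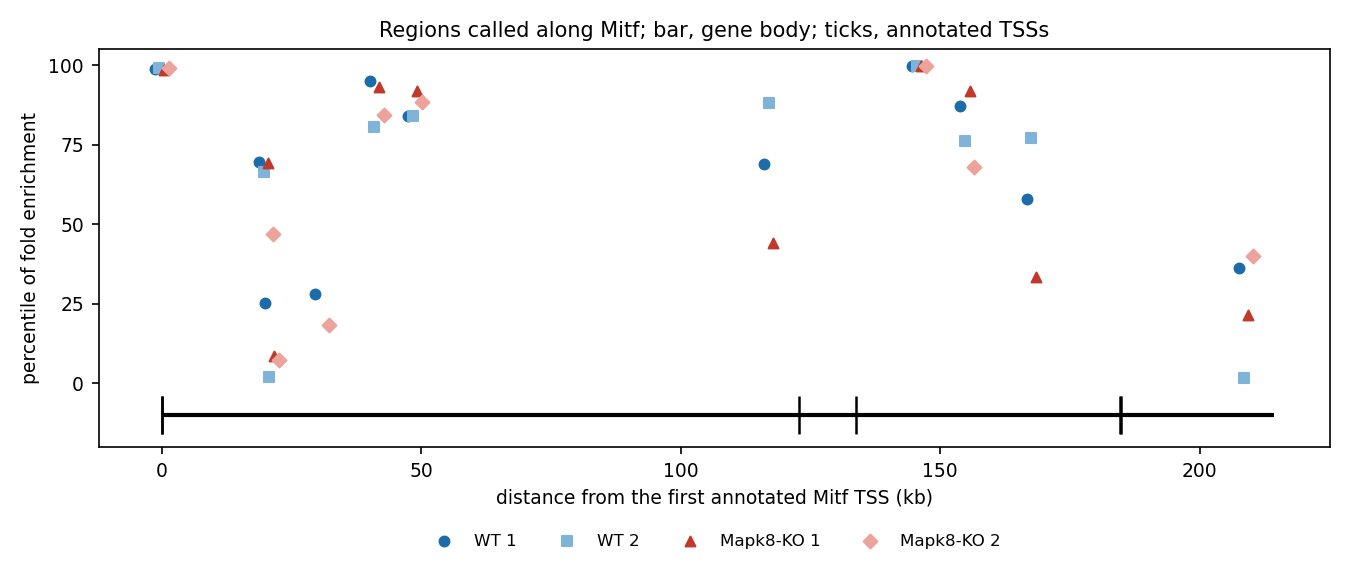
Percentile of fold enrichment of each region along Mitf, by distance from its first TSS in kb; points of the same region are drawn side by side, the bar is the gene body and the ticks are annotated TSSs. The first promoter and the intron 2 region sit near the top of all 4 lists, and no point lies at the 4 TSSs downstream, of which those of Mitf-201 and Mitf-208 nearly coincide.

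Sox10, on chromosome 15 (79154908 to 79165240, minus strand), had no own region. Its 6 regions lay in its flanks, in Polr2f, Micall1 and Gm10863, and the closest to a Sox10 TSS was 11771 bp away. That region was called with 27 fragments in WT 1, 19 in WT 2 and 22 in Mapk8-KO 1, and not in Mapk8-KO 2. Only the region at Micall1, 32630 bp from the Sox10 TSS, was called in all 4 libraries, with 40, 25, 36 and 25 fragments.

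Among the enzymes of melanin synthesis, Dct stood apart from Tyr and Tyrp1 by a region close to its TSS. The Dct gene runs from 118012790 to 118052244 on the minus strand of chromosome 14. Its region, chr14:118050976-118051484, lay 701 bp inside the gene, with its summit in intron 1. Fold enrichment was 12.8 and 12.3 in the WT libraries and 14.5 and 13.4 in the Mapk8-KO libraries. The percentiles were 88.9, 87.1, 94.2 and 93.0, so that both Mapk8-KO libraries lay above both WT libraries. Pileups were 57, 40, 79 and 55 fragments. The window holds ACAATG at position 173, and the Dct TSS itself was in no region.

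The other 6 regions in the Dct window lay closer to other TSSs, and 4 of them were called in 1 library only. Those inside the gene body were called in WT 2 alone, with 9 fragments in intron 7 and 8 in intron 4. These values were at the limit of what that library listed.

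Tyrp1 (chromosome 4, 80834123 to 80851719, plus strand) had its own region at chr4:80864465-80865101, which was 12746 bp past the gene and 30158 bp from a TSS. Fold enrichment there was 15.9 and 15.9 in the WT libraries and 15.3 and 15.0 in the Mapk8-KO libraries. Pileups were 107, 69, 103 and 64 fragments, and the percentiles were 97.3, 97.7, 96.1 and 96.7. Here both WT libraries lay above both Mapk8-KO libraries. The gene itself, with its promoter, held no region in any library.

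Tyr (chromosome 7, 87424771 to 87493512, minus strand) lay in a stretch of 3318 kb without a region in any library, and the closest region was 604163 bp from its TSS. Of 82620 gaps between neighbouring regions, 10 were at least as long, and the median gap was 9.24 kb. Tyr is the gene that defines pigment synthesis, and its level of accessibility was below the threshold of the list in all 4 libraries.

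Of the pigment organelle genes, Pmel (chromosome 10, 128704195 to 128720238, plus strand) shared its window with 6 regions of its neighbours. The Cdk2 promoter region had pileups of 48, 33, 53 and 45 fragments, and the promoter region of Rab5b, a gene of vesicle traffic, had 184, 123, 200 and 116. In the intron of Dgka, a diacylglycerol kinase, the region chr10:128731909-128732437 had fold enrichments of 13.1 and 12.0 in the WT libraries and 7.95 and 6.24 in the Mapk8-KO libraries. Both WT libraries were above both Mapk8-KO libraries. Pileups were 50, 33, 27 and 16 fragments, and 64.7% of the summit window was masked as repeat. The other Dgka intron regions called in all 4 libraries, 31067 and 36212 bp from the Pmel TSS, had pileups of 76, 34, 61 and 27 and of 54, 53, 66 and 46 fragments.

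Mlana (chromosome 19, 29697824 to 29708634, plus strand) had 5 own regions, of which 1 was called in all 4 libraries. That region, chr19:29699620-29699949 in intron 1, was 1796 bp from the TSS. Fold enrichment was 10.8 and 9.47 in the WT libraries and 10.5 and 8.18 in the Mapk8-KO libraries. Pileups were 36, 23, 37 and 20 fragments, and the percentiles of 59.1 to 79.0 overlapped between the groups. The window holds CATTGT, the reverse complement of ACAATG, at position 149. The other regions were weak: those 19226 and 13411 bp from the TSS were called in 3 libraries with 11 to 24 fragments, and those at 10238 and 15772 bp in WT 1 and Mapk8-KO 1 alone, with 14 and 18.

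Of the receptor genes, Kit (chromosome 5, 75574916 to 75656722, plus strand) lay in a stretch of 497 kb without a region. The closest region to a Kit TSS was 170566 bp away and was called in 1 library. Of all gaps, 516 of 82620 (0.625%) were as long. Ednrb (chromosome 14, 103814625 to 103844402, minus strand) had 2 regions, both called in Mapk8-KO 1 alone, the deepest library. The region 86 bp from a TSS had 12 fragments at percentile 6.50, and that at 50190 bp had 14 fragments at percentile 13.7.

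**Figure D3:**
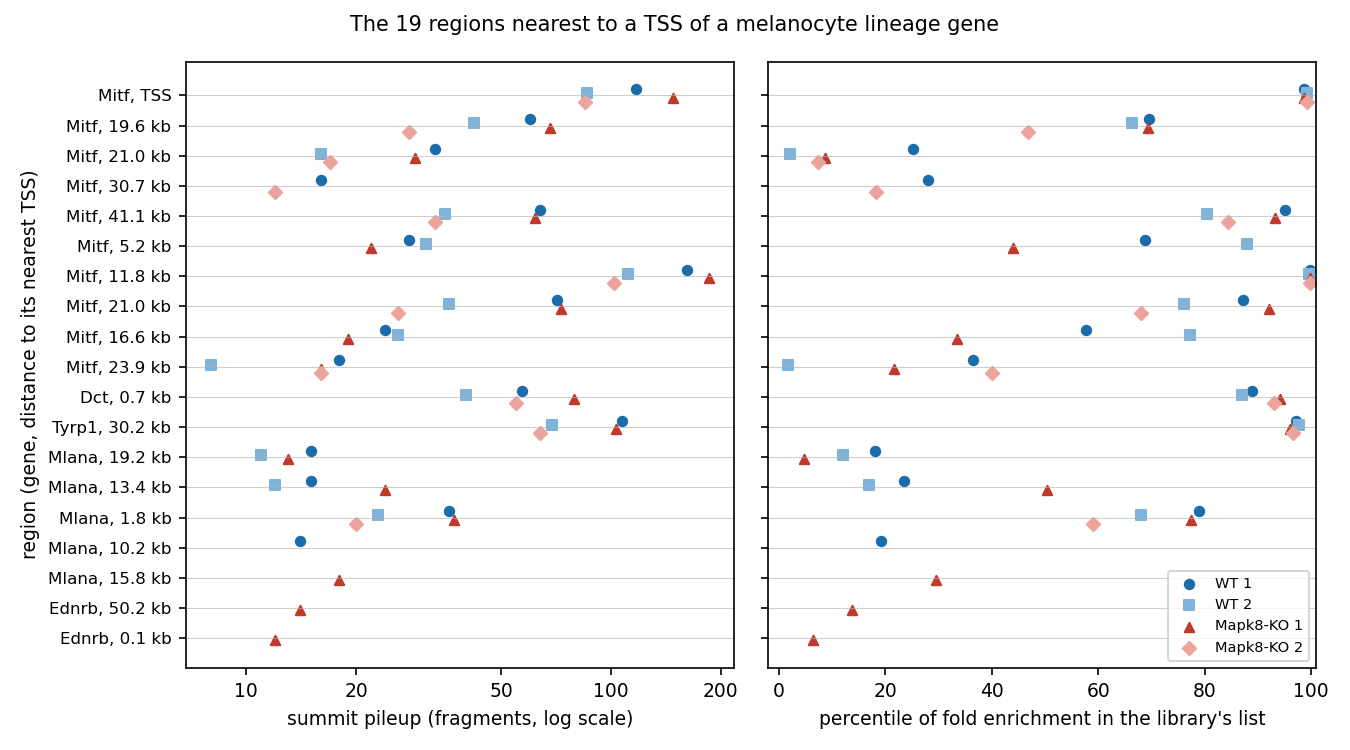
Summit pileup in fragments (left, log axis) and percentile of fold enrichment (right) of the 19 own regions in each library, named by gene and distance to its nearest TSS; a missing point is a region not called. The Mitf promoter, the Mitf region at 11.8 kb and the Tyrp1 region lie above percentile 96 in all libraries, and the 2 Ednrb points are from Mapk8-KO 1.

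The 10 own regions called in all 4 libraries had median percentiles of 88.0 and 78.3 in the WT libraries and 92.6 and 76.2 in the Mapk8-KO libraries. Over all regions called in all 4 libraries the medians were 68.0, 60.8, 69.3 and 58.6. Of the 10, 7 were Mitf regions and 3 were those of Dct, Tyrp1 and Mlana, so that the medians mostly describe Mitf. The values among the 10 ranged widely, from percentiles of 1.72 to 99.7 in WT 2. The own regions that were missing in at least 1 library had pileups of 11 to 31 fragments where they were called.

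The question of the design was whether the loss of JNK1 altered open chromatin in the sorted cells. In the member windows, each WT library had 30 regions called, and the Mapk8-KO libraries had 33 and 21. The mean was 30 ± 0 (SD, n = 2) in WT and 27 ± 8.49 (SD, n = 2) in Mapk8-KO, and the groups overlapped. No test is read from these counts, since a two-sided exact permutation test allows no p below 0.333 in this design. Over all regions the shares called were 83.8, 65.2, 83.2 and 59.1%, and the members' shares were 76.9, 76.9, 84.6 and 53.8%. Without Mapk8-KO 2 the difference of the means was -3 in place of 3 regions. No member region was called in both WT libraries and neither Mapk8-KO library, against 2.17% of all regions, and none in the opposite pattern, against 1.65%.

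The log2 fold enrichment was compared between genotypes with limma over the 40159 regions called in all 4 libraries. At a Benjamini-Hochberg adjusted p under 0.05, 0 regions passed (0.00%), and 2731 (6.80%) had an unadjusted p under 0.05. The paper, with the count test DESeq2 over its own atlas of peaks, reports many regions more or less accessible in controls. Its measure and set of regions are unlike these, so that the 0 here cannot be set against that result. Of the 19 member regions tested, 0 passed after adjustment and 1 had an unadjusted p under 0.05. On the summit pileup in place of the fold, 244 of all regions passed, with WT above in 200 and below in 44, and no member was among them.

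The 10 own regions had differences (WT minus Mapk8-KO) from -0.32 to 0.16 on the log2 scale, and their lowest adjusted p was 0.859 (0.282 at the lowest over the alternatives, in the fit without Mapk8-KO 1). The difference at Dct was -0.19 with a 95% half-width of 0.31, that at Mlana 0.09 with 0.38 and that at Tyrp1 0.03 with 0.28. On the summit pileup the Dct difference was -0.49 (limma unadjusted p = 0.0209, adjusted p = 0.334), the 1 own region with an unadjusted p under 0.05 there, and the 10 regions ranged from -0.49 to 0.19. The lower end on the fold scale, -0.32, was the Mitf region of intron 9, which was -0.67 without WT 1, -0.64 without Mapk8-KO 1, -0.04 without Mapk8-KO 2 and 0.02 without WT 2. At the Mitf promoter the difference in log2 fold was -0.03 with a half-width of 0.26. The half-widths, 0.23 to 0.54 over the 10 regions, are those of unadjusted 95% intervals from 2 libraries per group. A difference beyond its half-width can still fall short of the adjusted threshold, as at a Dgka region below (0.80 with 0.39, limma adjusted p = 0.302). Differences larger than these half-widths were thus also not always detectable.

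The 1 member below an unadjusted p of 0.05 was the Dgka intron region chr10:128731909-128732437 in the Pmel window. Its log2 fold enrichment was higher in WT by 0.80 with an SE of 0.19 (limma unadjusted p = 0.00037, adjusted p = 0.302), and both WT libraries lay above both Mapk8-KO libraries. Over the alternatives its adjusted p ranged from 0.00796, in the fit without Mapk8-KO 1, to 0.442. The other 2 Dgka intron regions had log2 differences of 0.01 and -0.10 with half-widths of 0.45 and 0.52. In percentile, 2 of the 19 member regions had both WT libraries above both Mapk8-KO libraries (13.8% of all regions tested) and 2 had the opposite order (18.9%). The former were the Dgka region with the low unadjusted p and the Tyrp1 region and the latter the Dct region and the Mitf intron region near Gm15531.

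**Figure D4:**
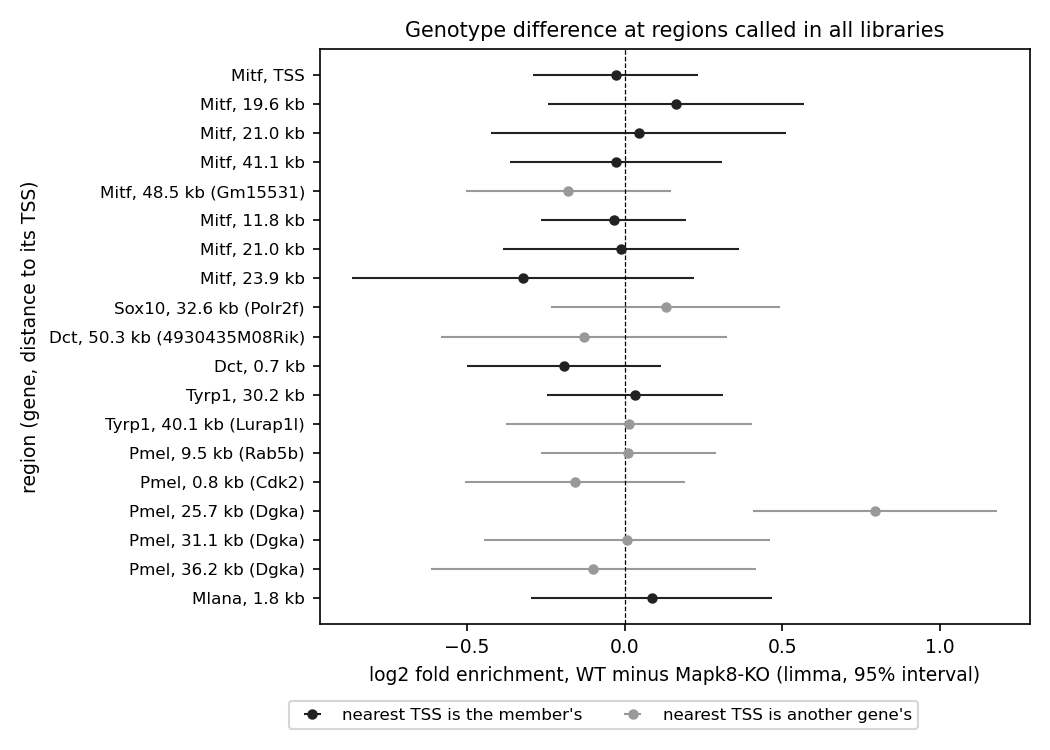
Difference in log2 fold enrichment, WT minus Mapk8-KO, of the 19 member regions called in all 4 libraries, with 95% intervals from limma (2 libraries per group). Black points are own regions and grey points regions closer to another gene's TSS, which is named in brackets; the interval excludes 0 at the first of the 3 Dgka intron regions and at no other region.

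The sorted population was read against lists of marker genes, with a TSS inside a region called in all 4 libraries as the measure. Of 10 keratinocyte genes 6 had one, among them Itga6 (the CD49f protein of the gate), Epcam and Trp63, whereas at Krt14, Krt5 and Col17a1 no region within 2 kb was shared by all 4 libraries. Each library did have a call within 2 kb of a Krt14 TSS, but in separate regions. Of the 9 melanocyte genes 1 had one, Mitf, and among the defining pigment genes Tyr, Dct, Tyrp1, Pmel and Mlana none had. No gene did of 9 immune, 7 mast cell and 7 endothelial genes, 1 did of 7 fibroblast genes (Pdgfra), 3 of 7 Schwann cell genes, 2 of 6 Merkel cell genes and 2 of 10 genes of liver, heart and neurons. Within 2 kb of a TSS, 7 keratinocyte, 4 melanocyte and 4 endothelial genes had such a region, and 0 immune or mast cell genes. The counts were 2 for fibroblast, 3 for Schwann cell and 3 for Merkel cell genes, and 2 for genes of liver, heart and neurons. Over all protein-coding genes the shares were 50.1% with a TSS inside a region and 55.0% within 2 kb. The share within 2 kb was 44.4% for melanocyte, 57.1% for endothelial and 28.6% for fibroblast genes. Of these, only the endothelial share was above that of all genes, and by little. The part of other cells in the member values was not tested.

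**Figure D5:**
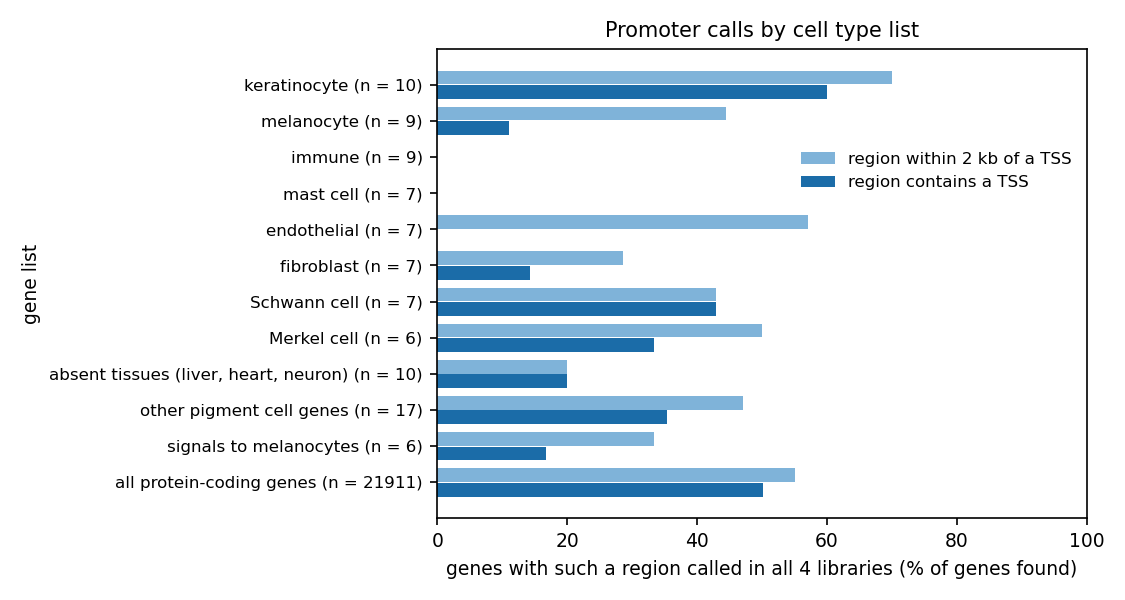
Share of the genes of each list with a region called in all 4 libraries that contains a TSS (dark bars) or lies within 2 kb of it (light bars); n is the number of genes found in the annotation. The melanocyte list reaches 11.1% and 44.4%, and all protein-coding genes 50.1% and 55.0%.

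Other genes of the pigment cell, taken from a list, had a TSS in a region of all 4 libraries in 6 of 17 cases. These were Tfap2a and Sox9, transcription factors that keratinocytes or hair follicle cells also use, Gpnmb, a glycoprotein of the melanosome, and Rab38, Rab27a and Myo5a, which serve organelle traffic in many cells. Mc1r, Oca2, Slc45a2, Slc24a5, Mlph and Sox5 had no promoter region in any library. Pax3, Foxd3 and Gpr143 had a promoter region in 1 or 2 libraries only. Trpm1 and Lef1 had a promoter region of 2 kb in all 4 libraries but no TSS inside a region.

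Of 6 genes for signals to melanocytes, Kitl, the ligand of KIT, had its TSS in a region of all 4 libraries, at percentiles of 41.4 and 30.1 in the WT libraries and 39.6 and 66 in the Mapk8-KO libraries. Edn1, a ligand of EDNRB, had a promoter region in all 4 libraries at percentiles of 25 to 45.1. Fgf2, a growth factor, had a region over a TSS in WT 2 and both Mapk8-KO libraries. Edn3 and Pomc had no promoter region in any library, and Hgf had one in the Mapk8-KO libraries only, a pattern of 1.65% of all regions. The receptors Kit and Ednrb, as above, had no region and regions in 1 library.

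The sequences of the own regions were set beside those of all regions. Their windows had a median GC content of 51.2%, against 50.2% over all regions, and 0 of 19 were over 50% repeat, against 6.17%. AP-1, as TGACTCA or TGAGTCA, was in 6 of 19 own windows (31.6%) and in 23.7% of all windows, and all 6 were Mitf regions. CATGTG was in 3 own windows (15.8% against 14.2%), also in Mitf, and CACGTG in 0 (4.76% of all). ACAATG was in 3, at Dct, Mlana and Mitf (15.8% against 9.32%), and ACAAAG in 2, at Tyrp1 and Mlana (10.5% against 13.3%). Matches are descriptions of letters in these windows and were not tested.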

How the data were processed

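ATAC-seq of sorted keratinocytes was deposited as 1 MACS2 narrowPeak list per library (2 WT, 2 Mapk8-KO; mm10). The study's methods name Bowtie2 and paired-end peak calling at a q of 0.05, whereas the submitters' processing notes list STAR 2.5.3, Trimmomatic 0.36, Picard, SAMtools and MACS2; which aligner made these lists, the MACS2 version and any Tn5 shift are not given in the sources used here. The deposited columns held the authors' display score, the ratio (fold enrichment) at the summit, and -log10 p- and q-values; replicates were not pooled. Reads were not analysed here, so no count test was run.

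Regions were annotated with GENCODE M21 and GRCm38. A gene's calls in a library were peaks that overlapped the region, and its value the peak of highest fold. Summit pileup was solved from the ratio and -log10 p; at least 99.996% of values came out whole within 0.05, and the solution was checked on simulated peaks. limma 3.58.1 (R 4.3.3, variance trend) compared log2 fold, centred per library, over regions called in all libraries, and was tested on simulated data. Replicates are samples named so by the labels. The limma p-values set the difference of the groups against the spread between replicates, drawn towards a trend over all regions tested. Members, lists and named genes (all members and listed genes) were chosen with earlier results of these data known. Trdc and Asip were not matched by symbol. Alternatives covered flank, q, list length, overlap, TSS distance, normalization, pileup, a replicate block and leaving out each library.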

Additional observations from a re-analysis of the deposited data

How the results depend on the processing

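Over 7 results and 59 alternatives, 1 value reversed and 13 moved past the limits set (1.5 times for counts, 1 SD or the 95% interval otherwise); the other 45 were within them, which for the difference in calls, with an SD of 6 regions, took in 0 to 9. The difference in member regions called, 3 (WT minus Mapk8-KO), ranged from -3 to 9 when each library was left out, and was -3 without Mapk8-KO 2. Regions in the member windows numbered 39 with flanks of 25 kb, 18 without flanks, 21 with 10 kb, 58 with 50 kb, 30 with lists of equal length and 19 for own regions only, and 34 to 39 with 1 library left out. Genes with a promoter region in all libraries fell from 4 to 1 within 500 bp of a TSS and to 1 where the region had to contain the TSS. The share of member regions called in all libraries was 50 to 66.7% and the median percentile of own regions, 84.6, was 71.6 to 86.6 with 1 library left out, with 66.7% and 71.6 in the set without Mapk8-KO 2.

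Genome-wide calls of the genotype test were 0, but 244 on summit pileup, and 1 to 823 with 1 library left out (1 without WT 1, 9 without WT 2, 823 without Mapk8-KO 1, 52 without Mapk8-KO 2); the cause was not tested. Member calls were 0 to 1, the 1 being the Dgka intron region without Mapk8-KO 1. A lone library left in a group is assumed to vary like those of the other group. The groups share replicate numbers, and no source used here says whether these mark a common litter, batch or day (the first library of each group was the deeper; correlation of same-numbered deviations 0.102); with the replicate block the test called 0 regions and the difference in calls was 3. Depth limits the absence of a call: the smallest pileup listed was 8 to 10 fragments.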
